A study of Homo sapiens with 6 samples.

Results

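The heat shock and endoplasmic reticulum (ER) chaperones are the proteins that fold, refold and clear other proteins. The set described here holds 47 genes, listed by name from the known heat shock and ER chaperone families and their regulators, with no measured value in the rule although earlier results of these data were known, out of 60483 gene ids in the deposited count tables. All 47 symbols were matched to an id. By the compartment of the protein, 24 are cytosolic or nuclear, 3 mitochondrial and 20 belong to the ER.

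RNA came from T98G cells, an established human glioblastoma line, in 3 groups of 2 libraries each. The oeSRPK1 group was transiently transfected, by lipofection, with SRPK1 cDNA cloned from T98G into pcDNA3.1. The shSRPK1 group received, in the same way, a hairpin against SRPK1 in pLKO.1, and the NT group was left untreated. SRPK1 is a kinase of serine/arginine-rich splicing factors, and the constructs were meant to raise (oeSRPK1) or lower (shSRPK1) its amount. No transfected control group was used here, so in both comparisons with NT the transfection and the construct changed together and cannot be told apart. The labels number the libraries of a group as replicates without naming separate cultures, so p-values measure the spread between these libraries, which may be partly technical.

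Reads in genes numbered 22691215 and 3891549 in oeSRPK1, 13650909 and 10792385 in shSRPK1, and 9891606 and 13634038 in NT, and 3 reads stood for 0.135 to 0.776 CPM (normalised counts, scaled to the same library size). SRPK1 itself stood at 190.3 and 168.0 CPM in oeSRPK1, 113.1 and 140.1 CPM in shSRPK1, and 152.5 and 140.4 CPM in NT. In edgeR's quasi-likelihood test with Benjamini-Hochberg adjustment over all 14732 genes tested, its log2 fold change was 0.29 ± 0.14 (SE, adjusted p = 0.175) in oeSRPK1 against NT, -0.21 ± 0.14 (adjusted p = 0.360) in shSRPK1 against NT and 0.50 ± 0.14 (adjusted p = 0.0377) in oeSRPK1 against shSRPK1. At an adjusted p under 0.05 SRPK1 thus differed between the constructs and in neither comparison with NT. Reads from the vector and from the cell's own gene cannot be separated. The mesenchymal glioma markers VIM (1741 to 2759 CPM) and CD44 (2529 to 3336 CPM) were abundant in all 6 libraries, while the astrocytic and stem cell markers GFAP, SOX2, S100B, AQP4 and PTPRZ1 had 0 or 1 reads in each. These genes are part of a list of 13 glioblastoma and astrocytic markers, which summed to 6873 to 9761 CPM, with 4 or 5 at 0 reads by library. The summed level of 7 leukocyte markers was 0 to 0.765 CPM. The sum was 50.1 to 78.3 CPM for 5 epithelial markers, 9.05 to 17.9 CPM for 5 neuronal markers and 0.194 to 0.855 CPM for 4 endothelial markers. The oeSRPK1 libraries, the second above all, also held transcripts of striated muscle, whose values stand below beside the small heat shock protein CRYAB.

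In the cytosol, Hsp70 proteins bind unfolded stretches of other proteins, J-domain proteins (DNAJ) deliver those clients, Hsp90 matures kinases and receptors, and the transcription factor HSF1 switches the genes on by binding heat shock elements when unfolded proteins accumulate. In the ER, the Hsp70 member HSPA5 (BiP) and its partners fold secretory proteins, and the sensors IRE1, PERK and ATF6 raise the folding machinery when it is overloaded. ATF6 and the spliced form of XBP1 act through ER stress elements in promoters. Proteins that fail to fold are pulled back to the cytosol and degraded, a route called ER-associated degradation (ERAD). HSPA5 and several heat shock proteins are often abundant in glioblastoma.

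The promoters of 6 members are shown because they hold these control elements and belong to genes whose levels are followed below. Windows run from 250 bases before to 50 bases after the gene start (RefSeq, GRCh38.p14), 5′ to 3′ on the gene's own strand. Capitals mark, in the first 3, heat shock elements of 3 alternating GAA and TTC units with 2 bases between units and, in the last 3, the ER stress element, CCAAT and CCACG with 9 bases between them. Both strands were searched.
HSPA6 (chr1:161524290-161524589, plus strand): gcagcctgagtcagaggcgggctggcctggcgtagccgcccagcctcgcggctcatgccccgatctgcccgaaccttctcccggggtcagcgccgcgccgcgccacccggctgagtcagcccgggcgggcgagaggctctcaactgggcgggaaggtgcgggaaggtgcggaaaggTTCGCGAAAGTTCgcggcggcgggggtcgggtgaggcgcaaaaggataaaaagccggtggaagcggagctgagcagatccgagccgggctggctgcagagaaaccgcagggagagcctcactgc
HSPA8 (chr11:123062087-123062386, minus strand): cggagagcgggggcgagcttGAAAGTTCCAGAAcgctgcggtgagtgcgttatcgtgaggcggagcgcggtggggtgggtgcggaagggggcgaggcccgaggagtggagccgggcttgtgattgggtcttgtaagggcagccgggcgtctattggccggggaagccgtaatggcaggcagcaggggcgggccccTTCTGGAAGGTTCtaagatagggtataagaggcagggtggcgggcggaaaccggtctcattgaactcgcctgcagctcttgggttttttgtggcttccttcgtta
HSP90AA1 (chr14:102086995-102087294, minus strand): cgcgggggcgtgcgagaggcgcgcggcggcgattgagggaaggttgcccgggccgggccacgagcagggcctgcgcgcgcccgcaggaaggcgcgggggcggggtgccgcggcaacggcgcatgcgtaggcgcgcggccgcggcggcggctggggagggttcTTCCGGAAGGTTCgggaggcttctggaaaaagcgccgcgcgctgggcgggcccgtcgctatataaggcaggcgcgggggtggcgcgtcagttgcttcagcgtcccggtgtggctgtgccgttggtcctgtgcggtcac
HSPA5 (chr9:125241294-125241593, minus strand): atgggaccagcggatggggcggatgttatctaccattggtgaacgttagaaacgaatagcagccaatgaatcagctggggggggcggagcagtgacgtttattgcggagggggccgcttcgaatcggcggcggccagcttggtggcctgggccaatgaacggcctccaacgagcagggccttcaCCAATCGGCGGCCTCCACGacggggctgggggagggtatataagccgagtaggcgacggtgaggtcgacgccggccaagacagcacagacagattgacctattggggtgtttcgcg
XBP1 (chr22:28800520-28800819, minus strand): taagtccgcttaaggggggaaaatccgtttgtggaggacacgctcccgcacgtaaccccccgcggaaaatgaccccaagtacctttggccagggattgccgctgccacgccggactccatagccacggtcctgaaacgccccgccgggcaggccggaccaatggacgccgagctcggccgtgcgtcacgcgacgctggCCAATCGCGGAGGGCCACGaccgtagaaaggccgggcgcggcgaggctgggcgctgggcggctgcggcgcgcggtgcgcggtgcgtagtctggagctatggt
CANX (chr5:179698717-179699016, plus strand): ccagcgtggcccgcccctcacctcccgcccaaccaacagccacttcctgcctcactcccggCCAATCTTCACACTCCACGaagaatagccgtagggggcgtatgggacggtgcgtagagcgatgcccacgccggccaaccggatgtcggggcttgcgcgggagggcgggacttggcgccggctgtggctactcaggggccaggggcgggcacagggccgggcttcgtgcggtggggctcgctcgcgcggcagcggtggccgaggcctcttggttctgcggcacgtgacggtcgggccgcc

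Counted from the gene start, the element began at -74 in HSPA6, at -230 and -55 in HSPA8, at -88 in HSP90AA1, at -66 in HSPA5, at -52 in XBP1 and at -189 in CANX. The RefSeq table held 62 windows for 43 of the 47 members, without CRYAB, FKBP4, HSF1 and PDIA3, and 35116 windows in all. Among cytosolic members 7 of 32 windows held the 3-unit heat shock element (CHORDC1, DNAJA1, DNAJB6, HSP90AA1, HSP90AB1, HSPA6 and HSPA8), against 0.49% of all windows. The only ER member with it was SERPINH1, and HSPD1 was the only mitochondrial one. The shorter 2-unit form, GAANNTTC or TTCNNGAA, which every 3-unit element also contains, was in 16 of 32 cytosolic windows, against 13.5% of all windows. The ER stress element was in 9 of 26 ER windows, belonging to CALR, CANX, CRELD2, HSP90B1, HSPA5, PDIA6 and XBP1, and in 0 of 32 cytosolic windows, against 0.0769% of all windows. CANX has 3 such windows, which overlap and hold the same site. A related ATF6 and XBP1 core, TGACGTGG, was in the ER set only in HYOU1, against 0.729% of all windows. A match is a string of letters in a window and does not show that a factor binds there.

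Set per length of exon, as CPM per kilobase (RPKM), so that genes can be compared, the mean levels of the 20 ER members spanned 10.9 to 559 RPKM in NT. CALR (559 RPKM), a calcium-binding chaperone of glycoproteins, and HSPA5 (554 RPKM) were highest, and their levels did not differ beyond the spread between the NT libraries (543 and 576 RPKM for CALR, 557 and 552 RPKM for HSPA5). Next came HSP90B1 (344 RPKM), the Hsp90 of the ER, and CANX (288 RPKM), the membrane-bound partner of CALR. The most abundant cytosolic members were HSP90AB1 (460 RPKM) and HSPA8 (255 RPKM). In shSRPK1 the mean was 1023 RPKM for CALR and 947 RPKM for HSPA5, and in oeSRPK1 it was 1001 RPKM for HSPA5 and 471 RPKM for CALR.

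The ER chaperones were where most of the members' calls lay. In shSRPK1 against NT, 8 of 20 ER members rose and 1 fell, at a background of 9.18% of all tested genes called (5.43% higher and 3.75% lower). In oeSRPK1 against NT, 4 of 20 rose, at a background of 20.6% (11.2% higher and 9.45% lower), so the share called there was near that of all genes. By edgeR 0 fell, and DESeq2 and limma-voom called 0 lower as well. At an unadjusted p under 0.05, 10 were higher and 0 lower by edgeR, where 35.7% of all genes reached it in either direction. The median log2 fold change of the ER members was 0.61 in shSRPK1 and 0.30 in oeSRPK1, beside 0.01 and -0.00 over all genes tested. In single libraries the median of the 20 members stood 0.29 and 0.30 above the NT mean in oeSRPK1 and 0.62 and 0.46 above it in shSRPK1, on the log2 scale. Both comparisons use the same NT libraries. In bulk RNA, a change in the share of cells that express a gene and a change in RNA per cell cannot be told apart.

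**Figure D1:**
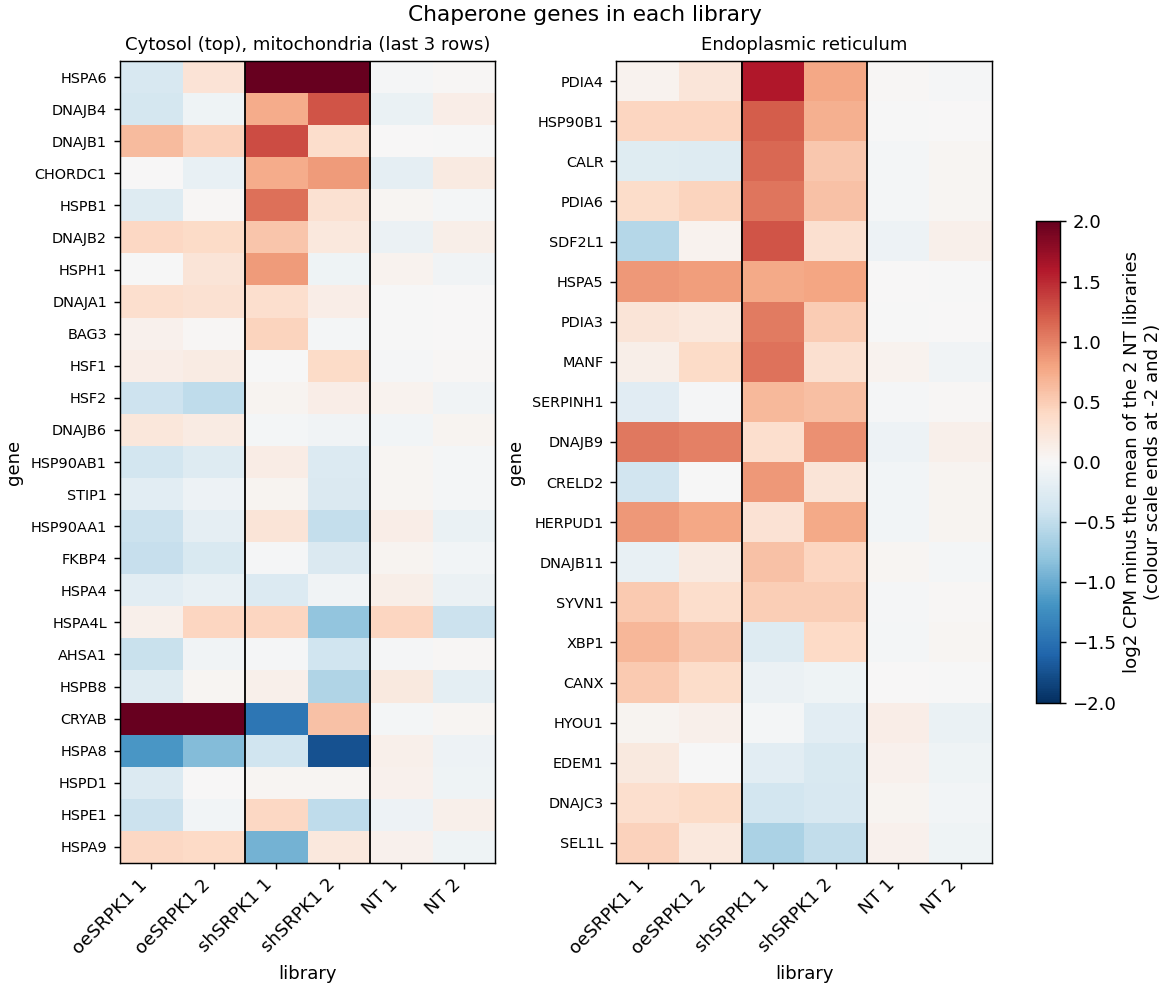
Level of the 45 members tested in each library, as log2 CPM minus the mean of the 2 NT libraries (colour, ending at -2 and 2), with cytosolic and mitochondrial genes on the left and ER genes on the right, libraries in columns and genes in rows. In the ER panel HSPA5 is red in all 4 transfected libraries, SEL1L is red in oeSRPK1 and blue in shSRPK1, and CALR is red in shSRPK1 and pale blue in oeSRPK1.

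HSPA5, the central Hsp70 of the ER, was higher with both constructs. It stood at 3969.6 and 3851 CPM in oeSRPK1, 3667 and 3738 CPM in shSRPK1, and 2177 and 2156 CPM in NT. All 4 transfected libraries lay above both NT libraries, with little spread inside any group. The log2 fold change was 0.85 ± 0.14 (SE, adjusted p = 0.00621, edgeR) in oeSRPK1 against NT and 0.77 ± 0.14 (adjusted p = 0.0190) in shSRPK1 against NT. The difference between the constructs was 0.08 ± 0.14 (adjusted p = 0.707), with a 95% interval of the ratio from 0.849 to 1.31.

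HSP90B1, the ER Hsp90 also known as GRP94, had a wider spread. It stood at 2174 and 2187 CPM in oeSRPK1, 3727 and 2644 CPM in shSRPK1, and 1599.9 and 1632 CPM in NT. The 3 groups did not overlap, and the shSRPK1 libraries were highest and least alike. It rose in shSRPK1 against NT by 0.98 ± 0.18 (log2, adjusted p = 0.0211), while oeSRPK1 against NT gave 0.43 ± 0.18 (adjusted p = 0.130) and oeSRPK1 against shSRPK1 gave -0.55 ± 0.18 (adjusted p = 0.0643).

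The disulfide isomerases PDIA3, PDIA4 and PDIA6, which form and shuffle the disulfide bonds of secretory proteins, all rose in shSRPK1 against NT. PDIA4 stood at 382 and 429 CPM in oeSRPK1, 1107 and 622 CPM in shSRPK1, and 367 and 359 CPM in NT. PDIA6 stood at 507 and 535 CPM in oeSRPK1, 822 and 586 CPM in shSRPK1, and 379 and 403 CPM in NT. PDIA3, the partner of the lectin chaperones, stood at 984 and 955 CPM in oeSRPK1, 1696 and 1171 CPM in shSRPK1, and 823 and 831 CPM in NT. For each of these 3 genes shSRPK1 1 was the highest library and shSRPK1 2 the next. The log2 fold changes in shSRPK1 against NT were 1.25 ± 0.25 for PDIA4 (adjusted p = 0.0272), 0.85 ± 0.17 for PDIA6 (adjusted p = 0.0262) and 0.79 ± 0.18 for PDIA3 (adjusted p = 0.0371). In oeSRPK1 against NT the values were 0.16, 0.41 and 0.23 in the same order, with adjusted p of 0.689, 0.129 and 0.407, and PDIA4 was lower in oeSRPK1 than in shSRPK1 by -1.10 ± 0.25 (log2, adjusted p = 0.0217). For PDIA6 and PDIA3, 32.4% and 24.7% of the 101-base windows of the longest transcript also occur in a transcript of another gene, so their counts are less certain.

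The lectin chaperones CALR and CANX, which hold newly made glycoproteins by their sugar chains, differed between the constructs in opposite directions. CALR stood at 1281 and 1276 CPM in oeSRPK1, 3349.8 and 2201 CPM in shSRPK1, and 1473 and 1563 CPM in NT. CANX stood at 2579.5 and 2320.3 CPM in oeSRPK1, 1658 and 1691 CPM in shSRPK1, and 1808 and 1787 CPM in NT. CALR was thus highest in shSRPK1 and lowest in oeSRPK1, and CANX the other way round, with no overlap between any groups of either gene. CALR rose in shSRPK1 against NT by 0.87 ± 0.20 (log2, adjusted p = 0.0371) and was lower in oeSRPK1 than in shSRPK1 by -1.12 ± 0.20 (adjusted p = 0.00926). CANX was higher in oeSRPK1 than in shSRPK1 by 0.55 ± 0.14 (adjusted p = 0.0263), and its values against NT were 0.45 ± 0.14 (adjusted p = 0.0536) in oeSRPK1 and -0.10 ± 0.14 (adjusted p = 0.661) in shSRPK1. Both promoters hold the ER stress element.

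**Figure D2:**
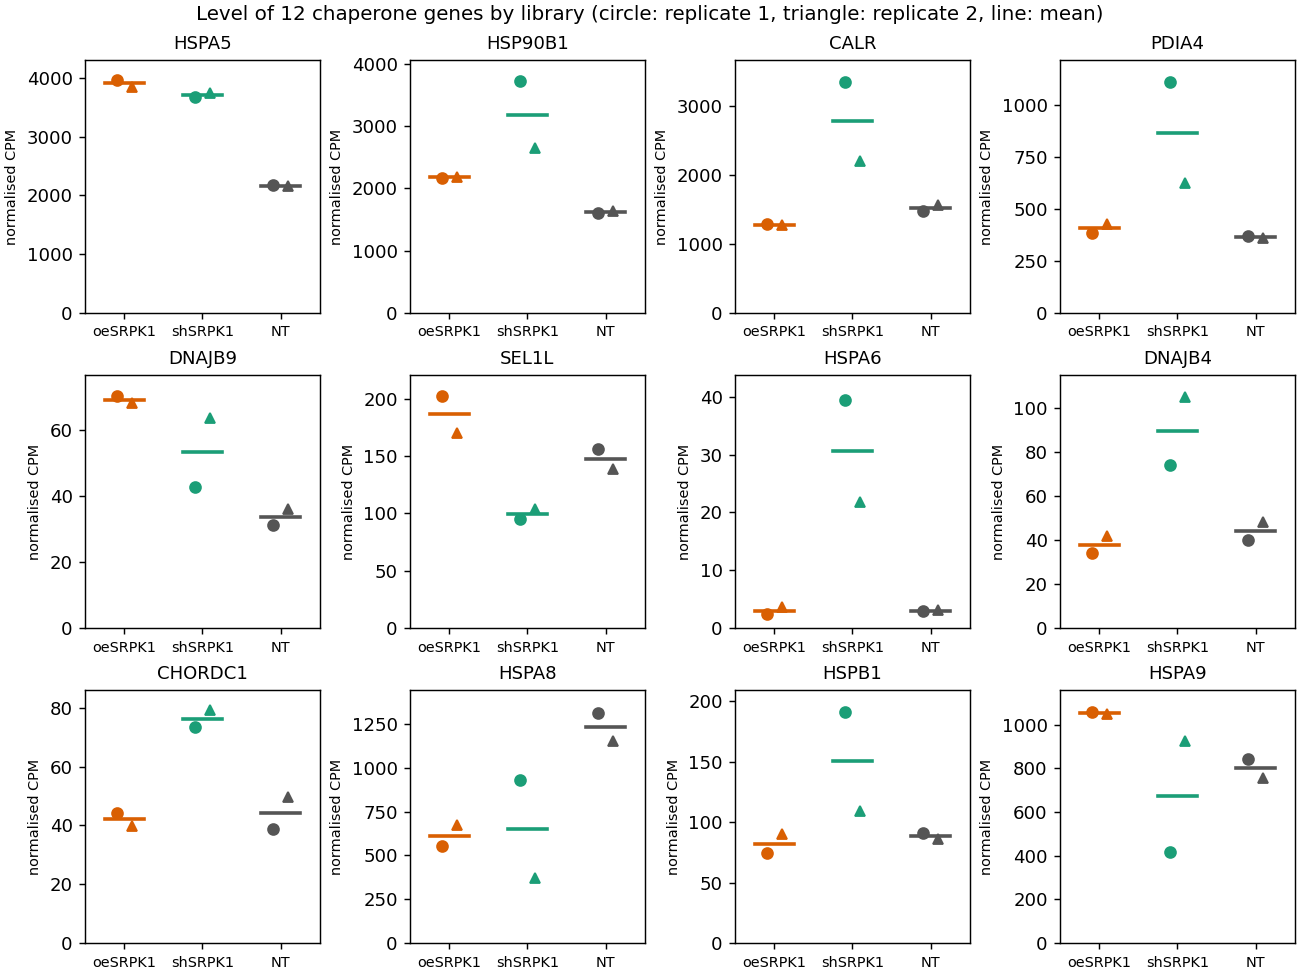
Normalised CPM of 12 chaperone genes in each library (y axis from 0), by group in the order oeSRPK1, shSRPK1 and NT, with a circle for replicate 1, a triangle for replicate 2 and a line at the group mean of 2 libraries. HSPA5 lies between 3667 and 3969.6 CPM in the 4 transfected libraries, against 2177 and 2156 CPM in NT, HSPA6 is high in both shSRPK1 libraries, and the shSRPK1 libraries lie far apart for HSPA8 and HSPA9.

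SERPINH1 (HSP47), the collagen-specific chaperone of the ER, stood at 183 and 211 CPM in oeSRPK1, 336 and 325 CPM in shSRPK1, and 210.5 and 217 CPM in NT. Its shSRPK1 libraries were close to each other and above the other 4. It rose in shSRPK1 against NT by 0.63 ± 0.12 (log2, adjusted p = 0.0231) and was lower in oeSRPK1 than in shSRPK1 by -0.75 ± 0.12 (adjusted p = 0.00666). Its value in oeSRPK1 against NT was -0.12 ± 0.12 (adjusted p = 0.522). It is the ER member whose promoter holds the 3-unit heat shock element and no ER stress element.

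DNAJB9 and HERPUD1 rose in oeSRPK1 against NT. DNAJB9, a HSPA5 cofactor that restrains IRE1, stood at 70.2 and 68.0 CPM in oeSRPK1, 42.6 and 63.6 CPM in shSRPK1, and 31.3 and 36.1 CPM in NT. HERPUD1, a membrane scaffold of ERAD, stood at 327 and 308 CPM in oeSRPK1, 219 and 303 CPM in shSRPK1, and 174 and 186 CPM in NT. Both genes had their highest values in oeSRPK1 and their lowest in NT, with no overlap between groups. The log2 fold changes in oeSRPK1 against NT were 1.04 ± 0.19 for DNAJB9 (adjusted p = 0.00967) and 0.82 ± 0.16 for HERPUD1 (adjusted p = 0.0132). In shSRPK1 against NT they were 0.65 ± 0.19 (adjusted p = 0.0694) and 0.53 ± 0.16 (adjusted p = 0.0789), and oeSRPK1 against shSRPK1 gave 0.39 (adjusted p = 0.173) and 0.29 (adjusted p = 0.235), so a difference between the constructs was not shown for either gene.

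The ubiquitin ligase SYVN1 (HRD1) and its partner SEL1L belong to the complex through which ERAD clients leave the ER. In shSRPK1 against NT, SYVN1 rose and SEL1L fell. SYVN1 stood at 92.1 and 82.2 CPM in oeSRPK1, 90.2 and 90.0 CPM in shSRPK1, and 63.4 and 65.0 CPM in NT. SEL1L stood at 202.5 and 170.1 CPM in oeSRPK1, 94.9 and 104.0 CPM in shSRPK1, and 156 and 138 CPM in NT. SYVN1 was above NT in all 4 transfected libraries, whereas SEL1L was below NT in both shSRPK1 libraries and above it in both oeSRPK1 libraries. SYVN1 rose by 0.45 ± 0.11 (log2, adjusted p = 0.0272) in oeSRPK1 and by 0.49 ± 0.11 (adjusted p = 0.0346) in shSRPK1. SEL1L was the 1 ER member that fell against NT, by -0.57 ± 0.13 (adjusted p = 0.0389) in shSRPK1. In oeSRPK1 it gave 0.34 ± 0.13 against NT (adjusted p = 0.104) and 0.91 ± 0.13 against shSRPK1 (adjusted p = 0.00484). EDEM1, which selects misfolded glycoproteins for the same route, was not called in any comparison (log2 fold changes from -0.26 to 0.36).

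DNAJC3, a J-domain protein that restrains PERK, was lower than NT in both shSRPK1 libraries and higher in both oeSRPK1 libraries. It stood at 157 and 162 CPM in oeSRPK1, 96.8 and 99.5 CPM in shSRPK1, and 129.9 and 119 CPM in NT. The constructs differed by 0.70 ± 0.11 (log2, adjusted p = 0.00566), while the values against NT were 0.36 ± 0.11 (adjusted p = 0.0518) and -0.34 ± 0.11 (adjusted p = 0.0842). DNAJB11 and SDF2L1, which bind each other and assist HSPA5, and CRELD2, a stress-induced secretory protein, ran the other way. In oeSRPK1 against shSRPK1 they gave -0.49 ± 0.14 (adjusted p = 0.0362), -1.20 ± 0.35 (adjusted p = 0.0498) and -0.80 ± 0.21 (adjusted p = 0.0341). DNAJB11 stood at 105 and 131 CPM in oeSRPK1, 174 and 158 CPM in shSRPK1, and 119 and 113 CPM in NT. CRELD2 stood at 43.1 and 55.6 CPM in oeSRPK1, 102 and 67.1 CPM in shSRPK1, and 53.9 and 58.4 CPM in NT. SDF2L1 stood at 8.23 and 12.9 CPM in oeSRPK1, 29.8 and 15.5 CPM in shSRPK1, and 11.5 and 13.3 CPM in NT. Both shSRPK1 libraries were the highest for each of these 3 genes. Against NT, none of DNAJB11, SDF2L1 and CRELD2 was called with either construct (adjusted p from 0.0541 to 0.945).

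XBP1, the transcription factor that IRE1 activates by splicing its mRNA, stood at 289.8 and 265 CPM in oeSRPK1, 153.5 and 239.8 CPM in shSRPK1, and 178 and 187 CPM in NT. The oeSRPK1 libraries lay above all others, and the shSRPK1 libraries lay on both sides of NT. No comparison passed the test: 0.60 ± 0.20 (adjusted p = 0.0666) in oeSRPK1 against NT, 0.11 ± 0.20 (adjusted p = 0.767) in shSRPK1 against NT and 0.50 ± 0.20 (adjusted p = 0.106) between the constructs. Gene counts do not tell the spliced from the unspliced form. HYOU1, a large Hsp70 relative that exchanges nucleotide on HSPA5, gave 0.07 ± 0.14 and -0.13 ± 0.14 in oeSRPK1 and shSRPK1 against NT (adjusted p = 0.736 and 0.586). MANF, a secreted cofactor of HSPA5, gave 0.25 ± 0.24 and 0.75 ± 0.24 (adjusted p = 0.499 and 0.0924).

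Between the constructs, 3 ER members were higher in oeSRPK1 (CANX, DNAJC3 and SEL1L) and 6 lower (CALR, CRELD2, DNAJB11, PDIA4, SDF2L1 and SERPINH1), at a background of 22.8% of all genes called (11.5% higher and 11.3% lower). The median log2 fold change of the 20 members was -0.24, beside -0.00 over all genes. This comparison shares its libraries with the other pair. Of the 7 ER members with an ER stress element, 4 rose in shSRPK1 against NT (CALR, HSP90B1, HSPA5 and PDIA6) and 1 in oeSRPK1 against NT (HSPA5), beside 5.43% and 11.2% of all genes called higher. Of the 12 others with a window, 3 rose and 1 fell in shSRPK1, and 3 rose in oeSRPK1.

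These ER calls rest on the spread pooled over 6 libraries, and the shSRPK1 libraries differed most from each other: the SD over the 20 members of the log2 difference between replicates was 0.22 in oeSRPK1, 0.46 in shSRPK1 and 0.13 in NT. All 9 calls in shSRPK1 against NT were lost without NT 1 (adjusted p 0.262 to 0.360), NT 2 (0.168 to 0.220), oeSRPK1 1 (0.0732 to 0.111) or oeSRPK1 2 (0.0731 to 0.111). Without shSRPK1 1 or shSRPK1 2 they were not lost, but that group then has no replicate. Its spread, the widest of the 3 groups, leaves the pooled estimate in every such fit. Calls held or gained there are therefore no support. The 4 calls in oeSRPK1 against NT were lost without NT 1, NT 2, oeSRPK1 1 or oeSRPK1 2, and were not lost without either shSRPK1 library. Of the 9 calls between the constructs, 4 held without NT 1 or NT 2, 0 without oeSRPK1 1 (0.0932 to 0.332) and 2 without oeSRPK1 2, while all held without either shSRPK1 library. Each call kept its sign in every one of these fits. Fitted on only the libraries compared, 0 ER members were called in shSRPK1 against NT and 10 rose and 1 fell in oeSRPK1 against NT. The calls over all genes moved the same way. These fits called 129 genes in shSRPK1 against NT, beside 1352 with all 6 libraries, and 6331 in oeSRPK1 against NT, beside 3036.

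**Figure D3:**
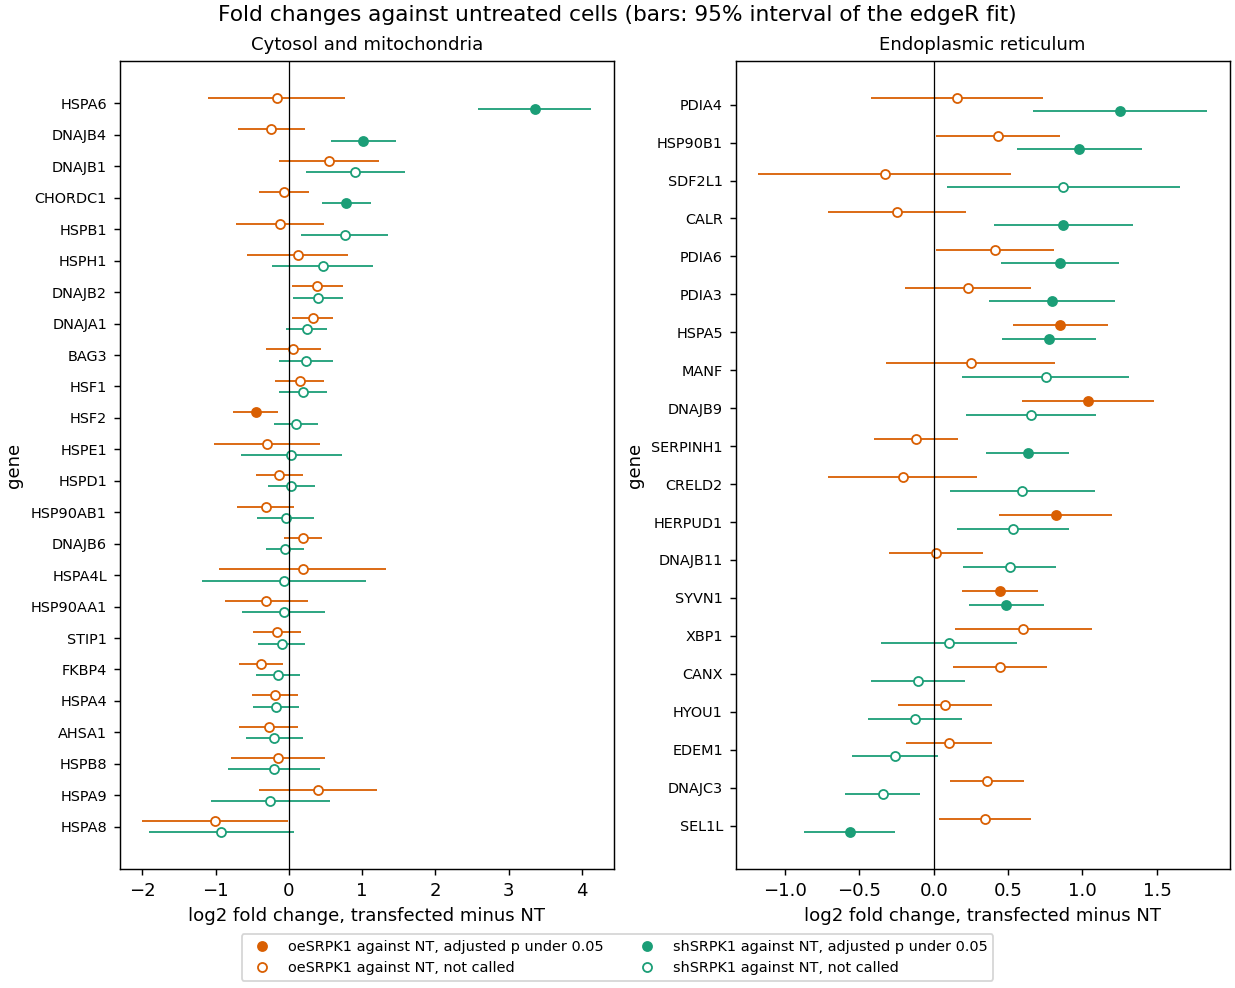
Log2 fold change against NT (x axis) of 44 members in oeSRPK1 (orange, upper of each pair) and shSRPK1 (green, lower), with the 95% interval of the edgeR fit as a bar, filled where the adjusted p was under 0.05, for cytosolic and mitochondrial genes on the left and ER genes on the right. CRYAB is left out because its interval runs off the scale. Most green points of the ER panel lie right of 0, and SEL1L is the filled point left of 0.

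The 24 cytosolic members had few calls against NT. HSPA1A and HSPA1B had too few counted reads to be tested. Of the other 22, 3 rose and 0 fell in shSRPK1 against NT, beside 9.18% of all genes called, with 6 higher and 0 lower at an unadjusted p under 0.05 (edgeR), which 28.8% of all genes reached. DESeq2 called 5 higher and 0 lower, and limma-voom 3 higher and 0 lower. In oeSRPK1 against NT 0 rose and 1 fell, beside 20.6%, with 3 higher and 3 lower at an unadjusted p under 0.05, which 35.7% of all genes reached, where DESeq2 called 1 higher and 0 lower and limma-voom 0 of either. The median log2 fold change was 0.03 and -0.14, beside 0.01 and -0.00 over all genes. Between the constructs 0 were higher and 5 lower in oeSRPK1, beside 22.8% of all genes called, with 1 higher at an unadjusted p under 0.05, which 38.0% of all genes reached, 1 by DESeq2 and 0 by limma-voom.

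The stress-inducible Hsp70 genes HSPA1A and HSPA1B, a near-identical pair (GRCh38 chr6:31815464-31817946 and chr6:31827735-31830255), had almost no counted reads. HSPA1A had 0 and 0 reads in oeSRPK1, 2 and 1 in shSRPK1, and 0 and 1 in NT, and HSPA1B had 0 in all 6 libraries. Of the 101-base windows of the longest transcript, 69.8% of HSPA1A and 72.7% of HSPA1B also occur in another gene, mainly in the other copy. Reads aligned to several places were counted to no gene, so these values do not give the level of the pair, whose summed reads were also too few to test.

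HSPA6, a strictly inducible Hsp70 found in humans and not in mice, showed the largest fold change of the tested members that passed the test. It stood at 2.34 and 3.62 CPM in oeSRPK1, 39.4 and 21.7 CPM in shSRPK1, and 2.91 and 3.04 CPM in NT. Both shSRPK1 libraries were far above the other 4, which were alike. It rose in shSRPK1 against NT by 3.36 ± 0.33 (log2, adjusted p = 0.00369), a ratio of 10.3 with a 95% interval from 6.02 to 17.5. In oeSRPK1 it gave -0.16 ± 0.40 against NT (adjusted p = 0.804) and -3.52 ± 0.36 against shSRPK1 (adjusted p = 0.00178). Of its 101-base windows 27.3% also occur in the neighbouring copy HSPA7, which had 0 to 4 reads per library. Per length its mean was 12.9 RPKM in shSRPK1 and 1.25 RPKM in NT.

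HSPA8, the constitutive Hsp70 (HSC70) that is abundant in unstressed cells, was below NT in every transfected library. It stood at 552 and 676 CPM in oeSRPK1, 931 and 370.1 CPM in shSRPK1, and 1316 and 1155 CPM in NT. The shSRPK1 libraries were far apart, and neither comparison with NT passed the test: -1.01 ± 0.41 (log2, adjusted p = 0.136) in oeSRPK1 against NT and -0.93 ± 0.41 (adjusted p = 0.197) in shSRPK1 against NT. Without shSRPK1 1 or shSRPK1 2, HSPA8 gave -1.05 in both fits in oeSRPK1 against NT, and -1.74 and -0.41 in shSRPK1 against NT. These fits leave 1 shSRPK1 library, so only the values are given. Between the constructs the value was -0.08 ± 0.40 (adjusted p = 0.903), and it was 0.69 without shSRPK1 1 and -0.65 without shSRPK1 2. Fitted on only the libraries compared, HSPA8 passed edgeR's test in oeSRPK1 against NT (-1.04, adjusted p = 8.64e-07). That fit called 6331 genes in all, beside 3036 with all 6 libraries. In shSRPK1 against NT, HSPA8 did not pass when fitted this way (-0.93, adjusted p = 0.240). The Hsp110 family members HSPA4, HSPA4L and HSPH1, which exchange nucleotide on Hsp70, were not called in any comparison (log2 fold changes from -0.34 to 0.46).

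DNAJB4 and CHORDC1 rose in shSRPK1 and were lower in oeSRPK1 than in shSRPK1. DNAJB4, a cytosolic partner of Hsp70, stood at 34.3 and 41.6 CPM in oeSRPK1, 73.9 and 105.0 CPM in shSRPK1, and 40.1 and 48.3 CPM in NT. CHORDC1, a cochaperone of Hsp90, stood at 44.3 and 39.8 CPM in oeSRPK1, 73.5 and 79.1 CPM in shSRPK1, and 38.8 and 49.7 CPM in NT. In both genes the shSRPK1 libraries lay above the other 4, and the oeSRPK1 and NT libraries overlapped. The rise in shSRPK1 against NT was 1.01 ± 0.19 for DNAJB4 (log2, adjusted p = 0.0222) and 0.78 ± 0.15 for CHORDC1 (adjusted p = 0.0208). In oeSRPK1 against shSRPK1 the values were -1.26 ± 0.20 (adjusted p = 0.00600) and -0.85 ± 0.15 (adjusted p = 0.00813). DNAJB1, the classical stress-inducible partner of Hsp70, gave 0.55 ± 0.28 in oeSRPK1 and 0.91 ± 0.28 in shSRPK1 against NT (adjusted p = 0.216 and 0.0944). DNAJA1, DNAJB2 and DNAJB6 were not called (log2 fold changes against NT from -0.06 to 0.39). Of the 7 cytosolic members with a 3-unit heat shock element, HSPA6 and CHORDC1 rose in shSRPK1 against NT and 5 were not called. Of the 12 others tested and with a window 1 rose, DNAJB4, and over all genes 5.43% were called higher. The median log2 fold change in this comparison was -0.04 with the element and 0.16 without it.

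The Hsp90 genes did not pass the test in any comparison. HSP90AA1, the inducible form, stood at 411 and 491 CPM in oeSRPK1, 667 and 399 CPM in shSRPK1, and 613 and 505 CPM in NT. Its shSRPK1 libraries again lay on both sides of NT. HSP90AA1 gave -0.31 ± 0.24 in oeSRPK1 and -0.07 ± 0.24 in shSRPK1 against NT (log2, adjusted p = 0.400 and 0.878), with 95% intervals of the ratio from 0.544 to 1.19 and from 0.644 to 1.41. HSP90AB1, the constitutive form, gave -0.32 ± 0.17 and -0.04 ± 0.17 (adjusted p = 0.216 and 0.891). The Hsp90 cochaperones STIP1, AHSA1 and FKBP4, and BAG3, which couples Hsp70 to autophagy, were not called, and FKBP4 came closest with -0.38 ± 0.13 in oeSRPK1 against NT (adjusted p = 0.0747).

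Of the heat shock factors, HSF1 was not called and HSF2 fell in oeSRPK1. HSF1 stood at 78.5 and 80.9 CPM in oeSRPK1, 71.3 and 93.6 CPM in shSRPK1, and 70.6 and 73.2 CPM in NT. Its log2 fold change was 0.15 ± 0.14 in oeSRPK1 and 0.20 ± 0.14 in shSRPK1 against NT (adjusted p = 0.505 and 0.403), and HSF1 is controlled mainly at the protein level, which RNA does not show. HSF2, a related factor that binds the same elements, stood at 19.3 and 18.1 CPM in oeSRPK1, 26.8 and 28.5 CPM in shSRPK1, and 27.1 and 24.6 CPM in NT. The oeSRPK1 libraries were the lowest of the 6. HSF2 fell in oeSRPK1 by -0.45 ± 0.13 against NT (adjusted p = 0.0485) and by -0.55 ± 0.13 against shSRPK1 (adjusted p = 0.0247). With DESeq2, limma-voom or the replicate number as a block, HSF2 was not called in oeSRPK1 against NT (adjusted p = 0.116, 0.0532 and 0.0722).

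Of the small heat shock proteins, which hold unfolded proteins without using ATP, HSPB1 (HSP27) was called between the constructs and not against NT. It stood at 74.3 and 90.0 CPM in oeSRPK1, 191.6 and 109 CPM in shSRPK1, and 91.3 and 86.3 CPM in NT. The value was -0.89 ± 0.25 in oeSRPK1 against shSRPK1 (log2, adjusted p = 0.0468) and 0.76 ± 0.25 in shSRPK1 against NT (adjusted p = 0.101). The call between the constructs held in 5 of 12 alternatives, and the adjusted p reached 0.255. It was lost with limma-voom, with only the libraries compared, with the replicate block, and without NT 1, NT 2, oeSRPK1 1 or oeSRPK1 2. HSPB8, the partner of BAG3, gave -0.15 ± 0.28 in oeSRPK1 and -0.21 ± 0.27 in shSRPK1 against NT (adjusted p = 0.739 and 0.659).

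CRYAB (αB-crystallin), a small heat shock protein abundant in muscle and lens and also found in gliomas, is described here after its values were seen. It stood at 18.8 and 203.4 CPM in oeSRPK1, 0.302 and 1.72 CPM in shSRPK1, and 1.07 and 1.13 CPM in NT. The 2 oeSRPK1 libraries differed by 10.8-fold, while the other members with at least 20 reads in both differed by 0.840-fold to 1.57-fold between them. The log2 fold change was 6.57 ± 1.72 in oeSRPK1 against NT (adjusted p = 0.0707) and 6.80 ± 1.76 against shSRPK1 (adjusted p = 0.0651) by edgeR. Against NT it passed the test with DESeq2 (adjusted p = 7.52e-05) and with the replicate number as a block (adjusted p = 0.00388). In fits that leave 1 oeSRPK1 library, CRYAB gave 7.48 without oeSRPK1 1 and 4.08 without oeSRPK1 2. It did not pass with limma-voom (0.240), with no filter (0.210), with only the libraries compared (0.199), or without NT 1 (0.274), NT 2 (0.243), shSRPK1 1 (0.203) or shSRPK1 2 (0.207). Most genes of striated muscle were also highest in the second oeSRPK1 library. ACTA1 stood at 74.1 and 896.7 CPM in oeSRPK1, 0.0755 and 3.54 CPM in shSRPK1, and 0.0971 and 0.141 CPM in NT. The ratio of the second to the first oeSRPK1 library was 11.7 for MYH7, 11.6 for TTN and 11.3 for DES, and over the 12 markers with at least 20 reads in both libraries it spanned 3.31 (TPM2) to 14.1 (MYH2), with PYGM at 5.45 and ATP2A1 at 8.73. The summed level of 17 skeletal muscle markers was 539 and 3957 CPM in oeSRPK1, 430 and 352 CPM in shSRPK1, and 244 and 287 CPM in NT. Without TPM2, which was abundant in every library and was left out after its values were seen, the other 16 summed to 254 and 3013 CPM in oeSRPK1, 4.68 and 17.8 CPM in shSRPK1, and 3.01 and 4.17 CPM in NT. Of the 17 markers, 1 had 0 reads in each oeSRPK1 library, 6 and 3 had 0 in shSRPK1, and 8 and 9 had 0 in NT, and the fast muscle light chains MYL1 and MYL11 were at or near 0 throughout. The J-domain gene DNAJA4 stood at 1.26 and 21.7 CPM in oeSRPK1 and had 0 reads in the other 4 libraries. CRYAB overlaps HSPB2 on the opposite strand, and 14.9% of its 101-base windows also occur in transcripts of that locus. The part of the muscle transcripts in the CRYAB result was not tested.

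**Figure D4:**
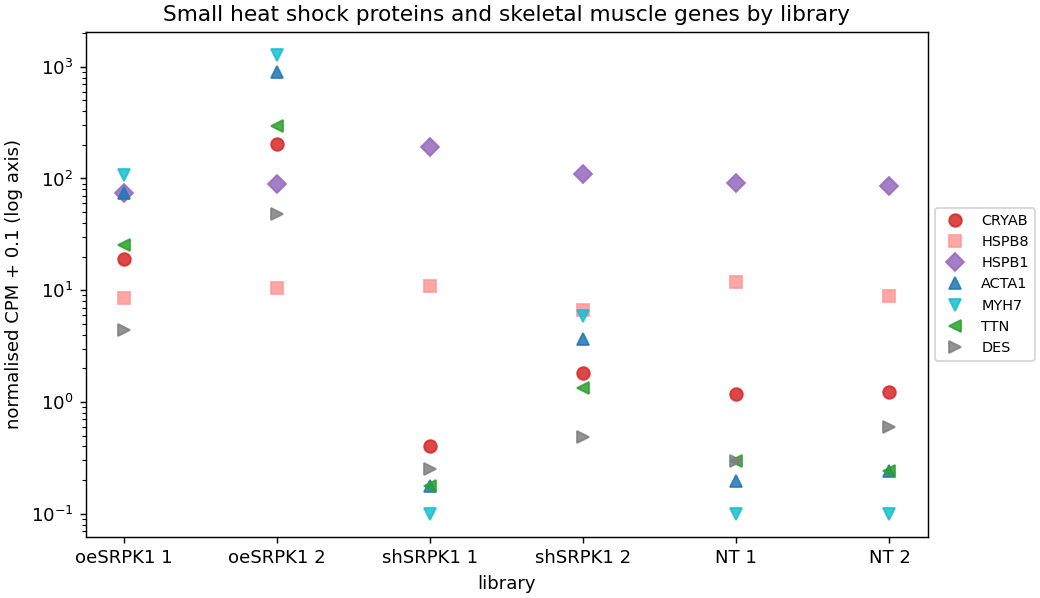
Normalised CPM plus 0.1 (log axis) of the small heat shock genes CRYAB, HSPB8 and HSPB1 and the striated muscle genes ACTA1, MYH7, TTN and DES in each library. CRYAB follows the muscle genes, at 18.8 and 203.4 CPM in oeSRPK1 and under 2 CPM in the other libraries, whereas HSPB8 and HSPB1 do not.

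The cytosolic calls also depended on single libraries. The 3 calls in shSRPK1 against NT were lost without NT 1 (adjusted p 0.0857 to 0.262) or NT 2 (0.0597 to 0.126), and HSPA6 alone held without oeSRPK1 1 or oeSRPK1 2 (0.0286 and 0.0248). The 3 calls were not lost without either shSRPK1 library, but the spread of that group is then not measured. Calls held or gained in a fit that leaves 1 shSRPK1 library are no support. The HSF2 call in oeSRPK1 against NT was lost without NT 1 (0.289), NT 2 (0.164), oeSRPK1 1 (0.206) or oeSRPK1 2 (0.189). Of the 5 calls between the constructs, 3 held without NT 1 or NT 2, 0 without oeSRPK1 1 (0.0655 to 0.255), 2 without oeSRPK1 2 and all without either shSRPK1 library. For the 22 members the SD of the log2 difference between replicates was 0.73 in oeSRPK1, where CRYAB is included, 0.72 in shSRPK1 and 0.25 in NT.

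Of the 3 mitochondrial members, 0 passed edgeR's test on all 6 libraries in any comparison, and 0 had an unadjusted p under 0.05. Over all genes, by comparison, 9.18% to 22.8% were called and 28.8% to 38.0% had an unadjusted p under 0.05. Fitted on only the libraries compared, not all 3 members stayed uncalled in oeSRPK1 against NT, where 6331 genes were called in all. HSPA9 (mortalin), the Hsp70 that pulls proteins into the mitochondrial matrix, stood at 1059.6 and 1050.0 CPM in oeSRPK1, 416 and 927 CPM in shSRPK1, and 844 and 755 CPM in NT. It was highest in oeSRPK1, and the shSRPK1 libraries lay on both sides of NT. HSPA9 gave 0.40 ± 0.34 in oeSRPK1 and -0.25 ± 0.34 in shSRPK1 against NT (adjusted p = 0.440 and 0.665). HSPD1 (HSP60), the barrel chaperonin of the matrix, stood at 296 and 356 CPM in oeSRPK1, 365 and 365 CPM in shSRPK1, and 379.7 and 334 CPM in NT. HSPE1, the lid of that barrel, stood at 7.96 and 10.3 CPM in oeSRPK1, 14.4 and 7.55 CPM in shSRPK1, and 10.0 and 11.6 CPM in NT, and 33.1% of its 101-base windows also occur in other genes. HSPD1 and HSPE1 lie head to head on chromosome 2, and the log2 fold changes of both against NT lay between -0.30 and 0.03.

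The rest of the folding and degradation machinery was counted from 7 further lists of genes named for their roles. Among 34 tested ER folding enzymes outside the set, 7 rose and 3 fell in oeSRPK1 against NT, and 4 rose and 3 fell in shSRPK1 against NT, beside 20.6% and 9.18% of all genes called. P4HB, the founding disulfide isomerase and a subunit of collagen prolyl hydroxylase, stood at 2471 and 2305 CPM in oeSRPK1, 3198 and 2278 CPM in shSRPK1, and 1359 and 1526 CPM in NT. It rose by 0.73 ± 0.19 (log2, adjusted p = 0.0305) in oeSRPK1 and by 0.92 ± 0.19 (adjusted p = 0.0261) in shSRPK1. PPIB, a proline isomerase of the ER, rose by 0.86 ± 0.16 in shSRPK1 (adjusted p = 0.0203) and gave 0.13 ± 0.16 in oeSRPK1 (adjusted p = 0.586) and -0.73 ± 0.16 between the constructs (adjusted p = 0.0167). CLGN, a CANX relative best known from testis, stood at 113.9 and 98.7 CPM in oeSRPK1, 9.97 and 27.9 CPM in shSRPK1, and 90.8 and 79.1 CPM in NT, and fell by -2.18 ± 0.45 in shSRPK1 (adjusted p = 0.0460).

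Among 24 tested ERAD genes outside the set, 4 rose and 2 fell in oeSRPK1 against NT, and 0 were called in shSRPK1 against NT, where 4 were higher and 2 lower at an unadjusted p under 0.05. Over all genes 20.6% and 9.18% were called, and 28.8% had an unadjusted p under 0.05 in shSRPK1 against NT. SELENOS, a selenoprotein of the export channel, and DERL1, a channel subunit, rose in oeSRPK1 by 0.98 ± 0.15 (log2, adjusted p = 0.00539) and 0.58 ± 0.11 (adjusted p = 0.0123), and UBE2G2, an ERAD ubiquitin-conjugating enzyme, fell by -0.96 ± 0.16 (adjusted p = 0.00701). Against shSRPK1 the same genes gave 0.56 (adjusted p = 0.0340), 0.68 (adjusted p = 0.00739) and -0.77 (adjusted p = 0.0145). Of 17 tested genes of the translocation channel and signal peptidase, 6 rose and 1 fell in oeSRPK1 against NT and 0 were called in shSRPK1 against NT (2 higher and 2 lower at an unadjusted p under 0.05), beside the same shares of all genes, of which 11.2% were called higher in oeSRPK1. The signal peptidase subunit SEC11C, at 35.6 and 38.8 CPM in oeSRPK1, 15.1 and 11.8 CPM in shSRPK1, and 14.95 and 14.97 CPM in NT, rose by 1.30 ± 0.16 against NT (adjusted p = 0.00229) and by 1.45 ± 0.16 against shSRPK1 (adjusted p = 0.00218). The median log2 fold change in oeSRPK1 was 0.22 over the ERAD genes and 0.27 over the translocation genes, beside -0.00 over all genes.

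Of 15 ER stress sensors and effectors, 2 rose in oeSRPK1 against NT and 0 were called in shSRPK1 against NT, where 2 were higher and 3 lower at an unadjusted p under 0.05. Over all genes 11.2% were called higher in oeSRPK1, and 9.18% were called in shSRPK1, where 28.8% had an unadjusted p under 0.05. PPP1R15A (GADD34), which reverses the block on translation set by PERK, stood at 647 and 563 CPM in oeSRPK1, 143.5 and 265.6 CPM in shSRPK1, and 158 and 176 CPM in NT. It rose in oeSRPK1 by 1.86 ± 0.28 against NT (log2, adjusted p = 0.00639) and by 1.57 ± 0.27 against shSRPK1 (adjusted p = 0.0106). EIF2AK3, the gene of PERK, rose by 0.52 ± 0.12 in oeSRPK1 against NT (adjusted p = 0.0209). The stress-induced factor DDIT3 (CHOP), named after its values were seen, stood at 309.9 and 285 CPM in oeSRPK1, 68.0 and 167 CPM in shSRPK1, and 110.0 and 110.2 CPM in NT. It gave 1.44 ± 0.40 in oeSRPK1 against NT (adjusted p = 0.0544) and was not called. Over the 15 genes log2 fold changes ran from -0.23 to 1.86 in oeSRPK1 against NT and from -2.23 to 0.46 in shSRPK1 against NT.

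Outside the ER, the counts stand beside 20.6% of all genes called in oeSRPK1 against NT and 9.18% in shSRPK1 against NT. An unadjusted p under 0.05 was reached by 28.8% of all genes in shSRPK1 against NT. Of 14 chaperonin and prefoldin subunits, which fold actin and tubulin, PFDN2 alone rose in oeSRPK1 against NT (0.57 ± 0.17, adjusted p = 0.0461) and 0 were called in shSRPK1 (0 higher and 2 lower at an unadjusted p under 0.05). Of 22 other cytosolic chaperones and cochaperones tested, 0 rose and 2 fell in oeSRPK1, and 1 rose and 2 fell in shSRPK1. HSF4, a heat shock factor known from the lens, stood at 26.6 and 30.2 CPM in oeSRPK1, 71.4 and 75.0 CPM in shSRPK1, and 26.5 and 32.1 CPM in NT, and rose in shSRPK1 by 1.32 ± 0.14 (log2, adjusted p = 0.00396). FKBP5, an Hsp90 cochaperone induced by glucocorticoids, fell in oeSRPK1 by -0.90 ± 0.15 (adjusted p = 0.00706), and BAG5, a nucleotide exchange factor of Hsp70, fell in shSRPK1 by -0.82 ± 0.12 (adjusted p = 0.0107). Of 15 other mitochondrial chaperones and proteases, TRAP1, the mitochondrial Hsp90, fell in oeSRPK1 by -0.74 ± 0.13 (adjusted p = 0.00712) together with the disaggregase CLPB, and GRPEL2, a nucleotide exchange factor of HSPA9, fell in shSRPK1 by -0.63 ± 0.15 (adjusted p = 0.0402).

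Between the constructs, beside 22.8% of all genes called, 6 of the 34 ER folding enzymes were higher and 5 lower in oeSRPK1, 6 of the 24 ERAD genes were higher and 3 lower, and 5 of the 17 translocation genes and 2 of the 15 stress sensors and effectors were higher. CLGN was higher in oeSRPK1 than in shSRPK1 by 2.51 ± 0.46 (log2, adjusted p = 0.0189) and BAG5 by 0.90 ± 0.12 (adjusted p = 0.00373). HSF4 was lower by -1.38 ± 0.14 (adjusted p = 0.00176).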

How the data were processed

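Total RNA with poly(A) selection was sequenced from T98G cells as 101-base read pairs, per the labels' protocols. The authors deposited 1 table of raw read counts per gene for each of 6 libraries. Per the submitters' processing notes, FastQC, Trimmomatic, STAR 2.5.3 and the hg38 build were used; the counter, the annotation release and any use of strand are not given in the sources used here, so overlapping antisense genes cannot be told apart. The 5 closing rows that name no gene were kept out. They held, of all reads in the tables, 8.13% to 11.1% outside features, 3.04% to 3.37% ambiguous and 11.95% to 13.1% aligned to several places. Of 60483 ids, 41124 took a symbol from a table of names and 15629 from GENCODE 29, and 3730 had none.

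The counts were scaled by TMM and tested with edgeR 4.0.16 (quasi-likelihood, R 4.3.3) on all 6 libraries together, over the 14732 genes that passed filterByExpr (minimum count 10, minimum total 15), which held 99.8% of reads in genes. A gene was called at a Benjamini-Hochberg adjusted p under 0.05. The biological coefficient of variation was 14.5%. The fits were tested on simulated data with the same spread in every group. That cannot check how the unequal spread of the real groups affects the calls. A level of 3 reads was taken as the floor, and intervals cover counting error and the spread between libraries. Alternatives were DESeq2 1.42.0 with its own test or its size factors alone, limma-voom 3.58.1, no filter, only the libraries compared, a block for the replicate number, and a fit without each library in turn.

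The members and lists were chosen with earlier results of these data known. Values in every library were given for SRPK1, for up to 6 called members with the largest rise and fall in each comparison and compartment, for the mitochondrial members and for the main chaperones and regulators. CRYAB and the genes named beside it were chosen after their values were seen. From the other lists, genes were taken from the 3 called ones with the smallest adjusted p in each direction, and DDIT3 was added after its values were seen. Promoters shown were, of the members with values in every library under this rule and a control element, the 3 cytosolic and 3 ER ones with the largest absolute fold change in oeSRPK1 against NT.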

Additional observations from a re-analysis of the deposited data

How the results depend on the processing

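All 31 calls of members (12 in shSRPK1 against NT, 5 in oeSRPK1 against NT and 14 between the constructs) kept their sign in every alternative. Numbers called changed more, and the cause was not tested. HSPA1A and HSPA1B had too few counted reads to test, and reads aligned to several places were counted to no gene.

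In shSRPK1 against NT, ER members called higher numbered 14 with no filter, 0 with only the libraries compared and 5 with the replicate block, and ER members called lower numbered 0 with only the libraries compared and 0 with the block. Cytosolic members called higher numbered 5 with DESeq2, 6 with no filter and 1 with only the libraries compared. Over all genes, 2616 were called with no filter and 129 with only the libraries compared, beside 1352.

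In oeSRPK1 against NT, only the libraries compared gave 10 ER members higher and 1 lower, 3 cytosolic members higher and 6 lower, and 6331 genes in all, beside 3036. Cytosolic members called higher numbered 1 with DESeq2, 1 with no filter and 1 with the block. Cytosolic members called lower numbered 0 with DESeq2, 0 with limma-voom, 2 with no filter and 0 with the block. Between the constructs, ER members called lower numbered 10 with no filter, 2 with only the libraries compared and 3 with the block. Cytosolic members called higher numbered 1 with DESeq2 and 1 with the block, cytosolic members called lower 3 with only the libraries compared, and all genes 1505 with only the libraries compared, beside 3361.

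Leaving out 1 library, where a lone library is assumed to vary like the others, gave these ranges. ER members called higher ranged 0 to 13 in shSRPK1 against NT, 0 to 10 in oeSRPK1 against NT and 0 to 6 between the constructs, and called lower 0 to 2, 0 to 1 and 0 to 10. Cytosolic members called higher ranged 0 to 9, 0 to 3 and 0 to 1, and called lower 0 to 3, 0 to 7 and 0 to 12. All genes called ranged 29 to 4595, 293 to 6415 and 144 to 6152. HSPA8 between the constructs ranged -0.65 to 0.69, and reversed to 0.69 without shSRPK1 1.

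No shared deviation of same-numbered libraries was seen over all genes tested. Their deviations correlated at 0.0235 for oeSRPK1 and shSRPK1, -0.0186 for oeSRPK1 and NT, and 0.0104 for shSRPK1 and NT. With 2 libraries per group, these values cannot show whether same-numbered libraries shared a culture or batch. The block was used as an alternative only, with 5 ER members called higher in shSRPK1 against NT, beside 8.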
